A study of Zea mays subsp. mays with 8 samples.

Results

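The start-site clusters described here lie in the middle of the chromosomes of maize (Zea mays subsp. mays). They come from CAGE, an assay that selects transcripts by their cap and reads a short tag at the 5′ end. Each tag is taken here as a position where transcription began, which was not tested. A cluster is a stretch of neighbouring start positions on 1 strand, and its dominant site is the position with the strongest signal. A cluster belonged to the middle when its dominant site lay between 1/3 and 2/3 of the highest dominant-site coordinate seen on that chromosome in any of 4 deposited sets. Of 75681 clusters on 10 chromosomes, 16250 (21.5%) met this rule, and the other 59431 lay in the 2 outer parts. The middle covered 686 Mb and the outer parts 1372 Mb, so that clusters spread evenly would have put 33.3% in the middle.

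The libraries came from roots and shoots of wild-type, untreated B73 and A632 seedlings, which are inbred lines, taken at 14 days. The groups B73 root, B73 shoot, A632 root and A632 shoot had 2 libraries each. All seedlings grew under 16 hours of light at 27 °C and 8 hours of dark at 21 °C. Each library pooled 5 seedlings, so that no value belongs to a single plant, and the whole root or the whole shoot was used, so that cell types within them are mixed. B73 root libraries went through 16 cycles of PCR and the other libraries through 14, and this difference and the B73 root group cannot be told apart. The deposited sets hold 1 value per cluster and none per library, so that no difference below has a replicate check and no p-value is given. The sets named B73_R and B73_S match the labels of B73 root and B73 shoot. The other sets carry the names Mo17_R and Mo17_S, after another inbred line, while the labels name A632. They were placed in no group, and their values are given under the names they carry. Behind the dominant sites stood 1267305 tags in B73 root, 2394924 in B73 shoot, 2797561 in Mo17_R and 3409185 in Mo17_S. A cluster missing from a set may lie below that set's listing limits, and the root set of B73 is the shallowest.

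In maize, genes are denser toward the ends of the chromosome arms, and the regions around the centromeres are rich in retrotransposons and recombine little. A gene in such a region usually lies farther from its neighbours than one near a chromosome end. Promoters differ in shape, some starting transcription at a single position and others over a broad stretch. The parts used here are positions along the coordinate range and do not mark the centromeres. The build of the coordinates is not stated in the files or labels, no cluster carries a gene name, and neither sequence nor genes around the sites were analysed here.

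Listed start-site clusters were sparser in the middle in every set and on every chromosome. Tags were 27 bp long, and how far such tags could be placed in repeats was not tested. B73 root had 4.21 clusters per Mb in the middle and 8.51 in the outer parts, a ratio of 0.495 (95% exact binomial interval 0.475 to 0.515). B73 shoot had 6.39 per Mb in the middle and 11.3 in the outer parts, a ratio of 0.566 (0.547 to 0.585). The ratio was 0.525 in Mo17_R (0.507 to 0.544) and 0.582 in Mo17_S (0.564 to 0.601). These intervals, like all below, cover counting error only, with clusters taken as independent. By number, the middle held 2889 of 14568 root clusters (19.8%) and 4385 of 19880 shoot clusters (22.1%). The density was lower in the middle on 10 of 10 chromosomes in each of the 4 sets.

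Root and shoot had closer ratios once dense runs were left out, here 10 or more dominant sites of 1 set with gaps of at most 2000 bp. Without clusters lying in a run of any set, B73 root had 3.61 clusters per Mb in the middle and 8.02 in the outer parts, a ratio of 0.450 (0.430 to 0.470). B73 shoot then had 4.37 and 9.26, a ratio of 0.472 (0.454 to 0.491), so that the intervals of root and shoot overlapped. The ratio without runs was 0.471 in Mo17_R and 0.485 in Mo17_S. It stayed below 1 on 10 of 10 chromosomes in each set.

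The depth of the gap varied among chromosomes. With runs, the ratio of middle to outer density in B73 root spanned 0.329 to 0.667 over the 10 chromosomes, with a median of 0.533. In B73 shoot it spanned 0.414 on chromosome 1 to 0.930 on chromosome 9, with a median of 0.562. Chromosome 9 had 9.60 shoot clusters per Mb in the middle and 10.3 in the outer parts, and 279 of its 502 middle clusters stood in 7 runs. Without runs its ratio was 0.469. On chromosome 10 the shoot ratio was 0.826 with runs and 0.558 without, and a single run held 206 of its 433 middle clusters.

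**Figure D1:**
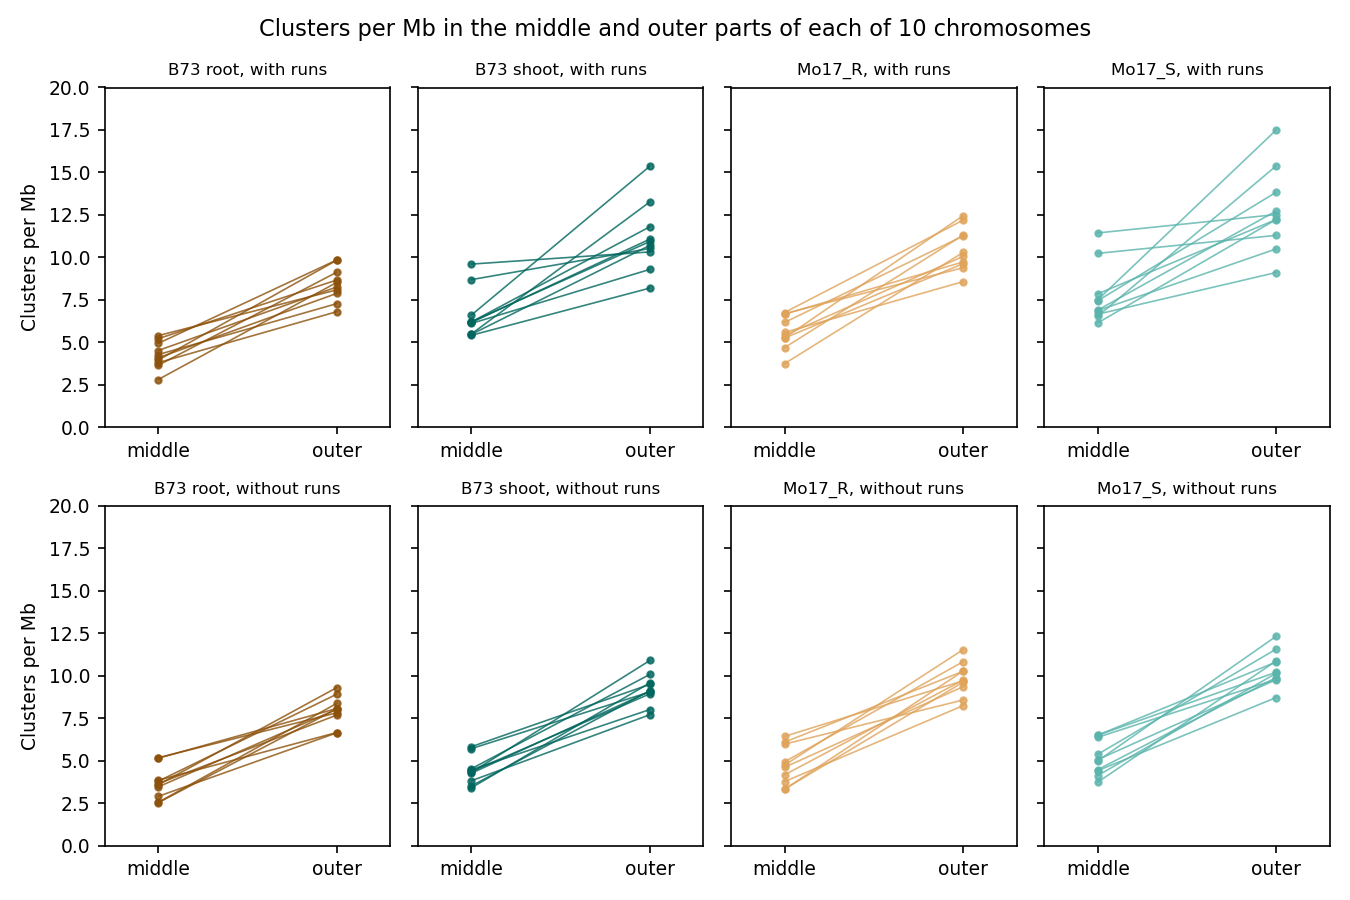
Start-site clusters per Mb in the middle (left point) and the outer parts (right point) of each of 10 chromosomes, for 4 sets, with clusters in dense runs (top row) and without them (bottom row). Each line is a chromosome, and every line climbs toward the outer parts, least on chromosome 9 of B73 shoot with runs, at 9.60 and 10.3 per Mb.

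The fall in density was lopsided, and with runs it was gradual in root but not in shoot. Over 15 equal steps along the chromosomes, root density was 12.6 clusters per Mb in the step at the low-coordinate end and 14.8 in the step at the high-coordinate end. The lowest step ran from 40% to 46.7% of the length, with 3.002 root clusters per Mb and 4.69 shoot clusters per Mb. In shoot the step after it, from 46.7% to 53.3%, had 6.91 clusters per Mb, and the following step had 5.41. Without runs those steps had 3.77 and 5.12 shoot clusters per Mb. The last step of the middle, from 60% to 66.7%, had 6.43 root clusters per Mb, more than the 3.66 of the step just outside the other boundary. The outer part at low coordinates had 6.97 root clusters per Mb, and the one at high coordinates had 10.1. In shoot these values were 9.63 and 12.9. The middle therefore takes in both the sparsest stretch and part of the climb toward the high-coordinate end.

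**Figure D2:**
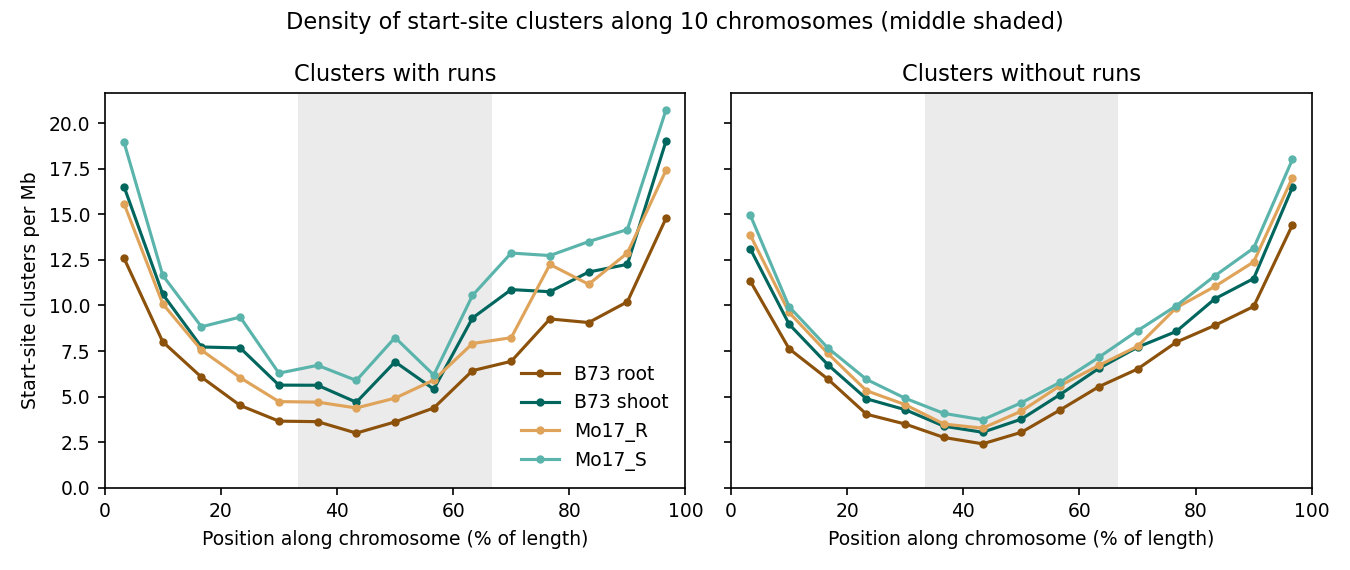
Start-site clusters per Mb in 15 equal steps along the chromosomes, summed over 10 chromosomes, against position in percent of length, for 4 sets with dense runs (left) and without (right). The middle is shaded, and the lowest step in B73 root, at 3.002 per Mb, lies at 40% to 46.7% of the length.

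The boundaries are positions alone, and clusters stood on both sides of them. At the boundary with the smallest gap at 1/3, on chromosome 4, the nearest cluster inside was a Mo17_S cluster at 80641659 on the minus strand with a signal of 9.59, and the nearest outside was a Mo17_S cluster at 80565038 on the same strand with 7.28. At 2/3, on chromosome 7, the nearest inside was a B73 root cluster at 117704406 on the plus strand with a signal of 0.575, and the nearest outside was a Mo17_S cluster at 117728169 on the plus strand with 4.76. Within 1 Mb of a boundary, B73 root had 98 clusters inside and 104 outside, and B73 shoot had 115 inside and 158 outside.

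Long stretches without any listed start site were more numerous in the middle. Between neighbouring dominant sites of all 4 sets combined, 37 gaps of at least 1 Mb lay in the middle and 22 in the outer parts, which cover the larger length of 1372 Mb. In B73 root alone the numbers were 105 and 57, and in B73 shoot 85 and 45. The longest such stretch of the middle measured 0.961 to 2.03 Mb across the chromosomes with all sets together, and that of the outer parts 0.746 to 2.29 Mb. It was longer in the middle on 7 of 10 chromosomes. For B73 root alone, the longest stretch of the middle ran from 105204822 to 109949627 on chromosome 4, or 4.74 Mb.

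Among windows of 5 Mb, the one with the fewest root clusters had its centre in the middle on 7 of 10 chromosomes. Over all 10 chromosomes it held 3 to 7 clusters. On chromosomes 6, 7 and 8 its centre lay in the outer part at low coordinates, at 31.0%, 32.6% and 29.9% of the length. The window of chromosome 7, from 55 to 60 Mb, reached across the boundary at 58856496. That of chromosome 3, from 75 to 80 Mb and centred in the middle, crossed the boundary at 77394691. The shoot set had the centre of its emptiest window outside the middle on chromosomes 6, 7 and 8 too. There the positional rule missed the centre of the sparsest window.

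Members of the middle were also farther from each other. Without runs, the median distance from a dominant site to the nearest other site of its set was 76.6 kb in the middle and 29.0 kb in the outer parts in B73 root. In B73 shoot it was 57.7 kb and 21.4 kb. With runs, the shoot medians were 9.05 kb in the middle and 11.7 kb in the outer parts, so that the order was the other way. Shoot clusters of the middle were thus a mixture of closely packed and isolated sites.

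Dense runs made up a larger share of the middle than of the outer parts. Of root clusters, 11.5% in the middle (95% Wilson interval 10.4 to 12.7) and 4.01% in the outer parts (3.67 to 4.38) stood in a run of their own set. Of shoot clusters, 30.9% in the middle (29.6 to 32.3) and 17.2% in the outer parts (16.6 to 17.8) did. Counted per Mb, clusters in runs were not sparser in the middle. Their density there was 1.42 times that of the outer parts in B73 root, 1.02 times in B73 shoot, 1.34 times in Mo17_R and 1.01 times in Mo17_S. Root had 12 of its 33 runs in the middle and shoot 32 of its 97, and none crossed a boundary.

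The runs of the middle fell into 38 places once overlapping runs of the 4 sets were joined. At 31 of these places both sets whose names end in S had a run, at 12 both sets ending in R had one, and at 11 all 4 sets did. At 3 places a set ending in R had a run and none ending in S did. In the B73 runs of the middle, 93.2% of shoot clusters and 92.2% of root clusters were sharp, meaning that the span of their signal from its 10th to its 90th percentile was at most 10 bp. Runs of the outer parts had similar sharp shares, 93.5% in shoot and 91.7% in root. Of the shoot clusters in runs of the middle, 51.7% covered a single position. Clusters packed this closely may not be independent start regions, which was not tested.

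The 3 runs with the most clusters lay at 2 places. On chromosome 10, a run of 244 Mo17_S clusters, 99.2% of them on the plus strand, spanned 90145457 to 90152452, or 6996 bp. In the same stretch B73 root had 19 clusters with a summed signal of 62.9, and B73 shoot had 204 with 5647. Mo17_R had 24 clusters there, with a summed signal of 38.2. The B73 shoot run at this place, of 206 clusters from 90145746 to 90152547, was the third by number. On chromosome 7, a run of 219 Mo17_S clusters, 97.3% of them on the plus strand, spanned 90708812 to 90714927. Root had 16 clusters there with a summed signal of 53.4, and shoot had 157 with 5216. At both places the shoot clusters had a median width of 1 bp and the root clusters one of 3 bp.

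The strand balance of the shoot also differed with and without runs. In B73 shoot, 56.3% of middle clusters (54.8 to 57.7) and 49.3% of outer clusters (48.6 to 50.1) were on the plus strand. Without runs the shares were 51.3% (49.5 to 53.1) and 50.004% (49.1 to 50.9). Root clusters were at 49.9% in the middle and 49.5% in the outer parts with runs. Sites on opposite strands that point away from each other within 500 bp also differed with and without runs, and their order turned. Of plus-strand shoot sites, 14.6% in the middle and 6.91% in the outer parts had such a partner with runs. Without runs the shares were 0.910% and 1.57%, with overlapping intervals. A minus-strand site could serve as partner of several plus-strand sites.

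Sharp start sites made up a larger share of the middle with runs, and a similar share of both parts without them. With runs, 56.6% of root clusters in the middle and 54.1% in the outer parts were sharp, a difference of 2.57 percentage points (95% Newcombe interval 0.539 to 4.58). The root share was higher in the middle on 6 of 10 chromosomes. Shoot clusters were sharp in 58.1% of the middle and 52.2% of the outer parts, a difference of 5.85 points (4.18 to 7.50), and the middle share was higher on 8 of 10 chromosomes. Without runs, root clusters were sharp in 51.7% and 52.2%, a difference of -0.52 points (-2.70 to 1.66). Shoot clusters were sharp in 42.2% and 43.4%, a difference of -1.16 points (-3.12 to 0.812). Mo17_R and Mo17_S gave differences of 4.69 and 6.73 points with runs, and of 0.598 and -0.265 points without.

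Median widths followed the same pattern in root, and in shoot the order of the parts turned without runs. With runs, the median width was 6 bp in the middle and 8 bp in the outer parts in B73 root, and 6 bp and 9 bp in B73 shoot. Without runs it was 9 bp in both parts in root, and 22 bp in the middle and 19 bp in the outer parts in shoot. Clusters of a single position made up 23.4% of middle and 18.7% of outer shoot clusters with runs, and 10.7% and 10.5% without.

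**Figure D3:**
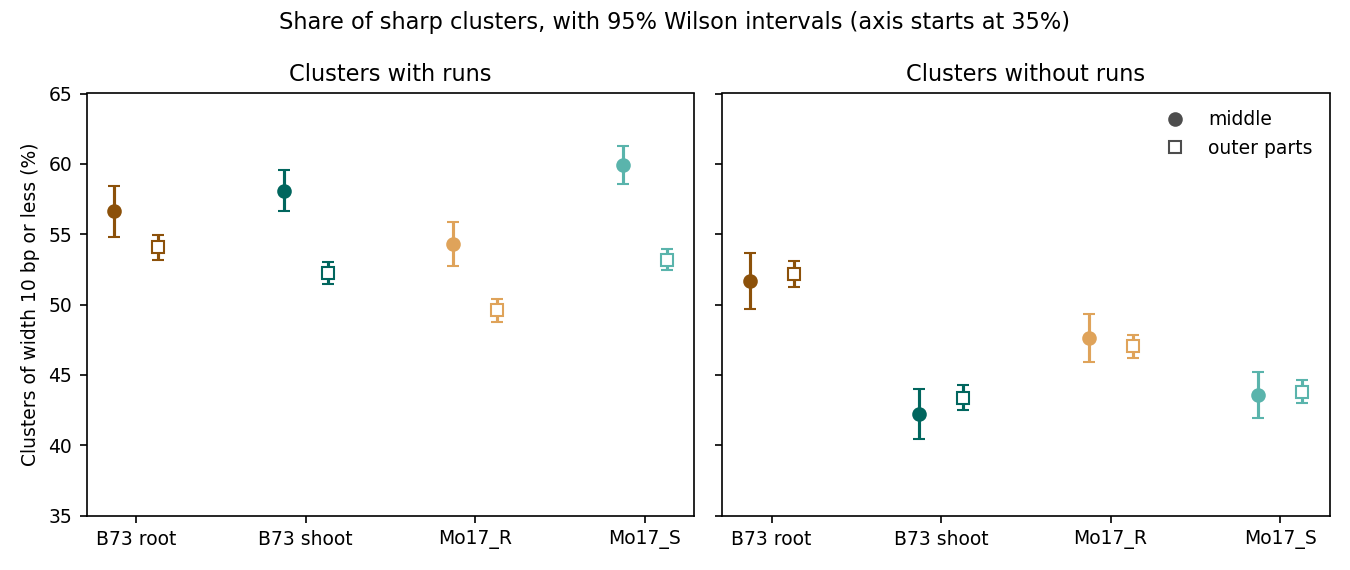
Share of clusters of width 10 bp or less, in percent, in the middle (filled circles) and the outer parts (open squares) for 4 sets, with dense runs (left) and without (right), with 95% Wilson intervals. The axis starts at 35%, and in B73 shoot the points stand at 58.1% and 52.2% with runs and at 42.2% and 43.4% without.

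With runs, the median signal of a cluster and the share of very strong clusters were slightly lower in the middle in each set. The signal is the authors' value, normalized to a power law of the tag number. The median signal of root clusters was 5.29 in the middle and 5.70 in the outer parts, and that of shoot clusters 7.39 and 7.73. Very strong clusters, with a signal of at least 100, made up 3.08% of middle and 3.81% of outer clusters in root, a difference of -0.73 points (-1.41 to 0.0408). In shoot they made up 2.92% and 3.63%, a difference of -0.71 points (-1.27 to -0.10), with a higher share in the middle on 1 of 10 chromosomes. In Mo17_R the difference was -0.58 points (-1.22 to 0.141) and in Mo17_S -0.83 points (-1.36 to -0.25). Without runs, the medians were 5.48 in the middle and 5.84 in the outer parts in root, and 8.005 and 8.21 in shoot. In Mo17_S the order of the medians then turned, with 8.36 in the middle and 8.25 in the outer parts. The share of very strong clusters without runs differed by -0.45 points in root (-1.20 to 0.412) and by -0.85 points in shoot (-1.48 to -0.14). Of the 1000 strongest clusters, 173 in root and 185 in shoot lay in the middle, which held 19.8% of all root and 22.1% of all shoot clusters.

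Of all signal in a set, the middle took 15.7% in B73 root, 20.3% in B73 shoot, 15.4% in Mo17_R and 20.8% in Mo17_S. Per Mb this came to 112 in the middle and 302 in the outer parts in root, and to 151 and 296 in shoot. Without runs of any set, it took 17.9% in root and 17.3% in shoot, and the order of the tissues turned. Without runs of any set, the summed root signal was 56482 in the middle and 259514 in the outer parts, against 77083 and 415072 with them, so that a larger part of the outer signal was left out. With only runs of the set itself left out, the values were 15.2% for root and 16.7% for shoot.

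The strongest root cluster of the middle lay on the minus strand of chromosome 4 from 152459610 to 152459621, within a Mo17_R run, and took 20.8% of the root signal of the middle. Its signal measured 16008 in B73 root, 732 in B73 shoot, 9184 in Mo17_R and 819 in Mo17_S. The dominant site stood at 152459616 in B73 root and at 152459619 in the 3 other sets, and the width was 4 bp in each. The next root cluster, on the minus strand of chromosome 1 at 178504715, measured 3171 in root and 1056 in shoot. In Mo17_R and Mo17_S it had 168 and 35.7, with dominant sites at 178504624 and 178504698. The following one, on the plus strand of chromosome 3 at 129174031, had 2537 in root and 78.5 in shoot, and 99.0% of the root signal fell on that position. Mo17_R had 1088 there and Mo17_S 32.6. All 3 had a higher signal in root than in shoot, as clusters picked for their rank in root.

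The 3 strongest shoot clusters of the middle, picked for their rank in shoot, had root signals of 8.04 to 11.2, somewhat above the root median of 5.29. On the minus strand of chromosome 9 at 103448299, root had 9.09 and shoot 2542, with 0.276 in Mo17_R and 346 in Mo17_S. On the plus strand of chromosome 5 at 85425496, root had 11.2 and shoot 2076, with 8.16 in Mo17_R and 4149 in Mo17_S. On the minus strand of chromosome 5 at 142750311, root had 8.04 and shoot 1808, with 7.05 in Mo17_R and 2456 in Mo17_S. At the last of these the dominant site was the same in all 4 sets. The first and second lay in runs.

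How often a start region of one tissue was also listed in the other was compared next. A cluster counted as shared when a cluster of the other set overlapped it by at least 1 bp on the same strand. Root clusters were shared with shoot in 87.0% of the middle and 88.0% of the outer parts, a difference of -0.96 points (-2.36 to 0.363). Shoot clusters were shared with root in 59.5% of the middle (58.0 to 60.9) and 68.4% of the outer parts (67.6 to 69.1), a difference of -8.88 points (-10.5 to -7.26). The share was higher in the middle on 4 of 10 chromosomes. The root set is the shallower one, and the part of depth in these shares was not tested. Below a signal of 2, 96.2% of 585 middle and 95.3% of 2137 outer root clusters were shared with shoot. From 2 to below 5 the shares were 74.7% and 77.8%. With Mo17_R, 64.3% and 67.2% of the root clusters below 2 were shared. The weakest root clusters were thus listed mostly where B73 shoot had a cluster. Whether listing in a tissue rested on the other was not tested, and these shares would carry it.

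Without runs, the shoot difference was smaller and lay in the same direction. Shoot clusters were shared with root in 72.9% of the middle and 76.7% of the outer parts, a difference of -3.78 points (-5.56 to -2.06), and the share was higher in the middle on 2 of 10 chromosomes. In signal classes, the shares of the middle and the outer parts were 76.7% and 81.5% from 5 to below 20, and 85.8% and 90.2% from 20 to below 100. From 2 to below 5 they were 55.8% and 56.7%, and from 100 upward 90.2% and 92.3%, both with overlapping intervals. Below 2 the order was the other way, at 94.5% of 73 middle clusters and 93.5% of 369 outer clusters, with overlapping intervals too. Mo17_S clusters were shared with Mo17_R in 80.5% of the middle and 83.3% of the outer parts without runs, a difference of -2.77 points (-4.25 to -1.35). Root clusters without runs stood at 87.8% and 88.2%, a difference of -0.35 points (-1.82 to 1.03).

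Shoot clusters of the middle without a root partner numbered 1777 of 4385, and the share with a partner was 59.5%, against 68.4% in the outer parts. Those without held 18.5% of the shoot signal of the middle, against 14.1% in the outer parts. Their median signal was 5.39, against 9.48 for those with a partner. The strongest of them lay in a run on the plus strand of chromosome 9 at 62306268, with a signal of 253. Root clusters of the middle without a shoot partner numbered 375 of 2889. The share with a partner was 87.0%, near the 88.0% of the outer parts. Those without held 4.25% of the root signal of the middle, against 3.27% in the outer parts. The strongest was on the plus strand of chromosome 1 at 110499026, a 1 bp wide cluster with a signal of 746 in B73 root and 2412 in Mo17_R. Neither B73 shoot nor Mo17_S listed a cluster over it.

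Between sets of the same tissue letter, B73 root clusters overlapped Mo17_R clusters in 79.9% of the middle and 80.6% of the outer parts, a difference of -0.68 points (-2.34 to 0.913). B73 shoot clusters overlapped Mo17_S clusters in 80.8% and 80.7%. In the other direction, Mo17_R clusters overlapped B73 root clusters in 61.0% of the middle and 65.4% of the outer parts, a difference of -4.39 points (-6.13 to -2.67), and without runs in 62.7% and 66.3%. Mo17_S clusters overlapped B73 shoot clusters in 69.7% and 71.3% with runs, and in 68.2% and 71.2% without. The sets differ in depth and length, and since their names differ from the labels these are shares of lists and not a comparison of lines.

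**Figure D4:**
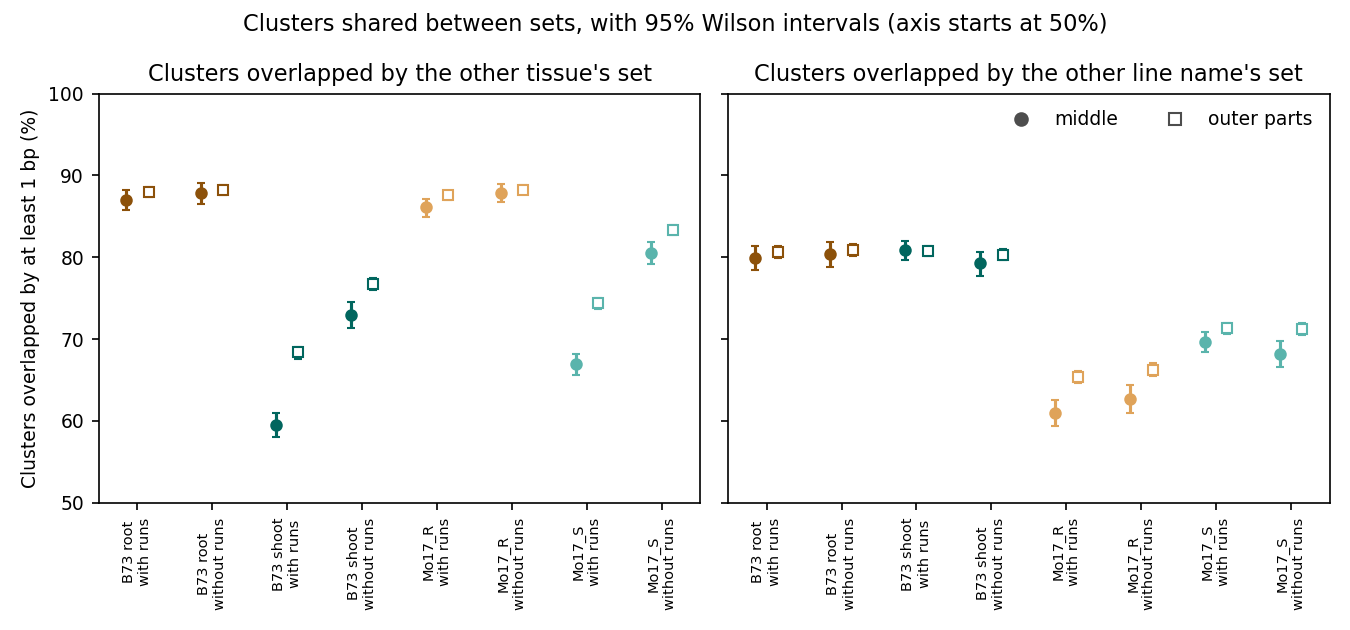
Share of clusters overlapped by at least 1 bp on the same strand, in percent, by the set of the other tissue (left) and by the set of the same tissue letter in the other line name (right), for the middle (filled circles) and the outer parts (open squares), with 95% Wilson intervals and an axis that starts at 50%. B73 shoot clusters stand at 59.5% and 68.4% in the left panel with runs and at 72.9% and 76.7% without.

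When overlapping clusters of all sets were joined into loci, 6143 loci lay in the middle and 21613 in the outer parts. All 4 sets listed 32.8% of the middle loci (31.6 to 34.0) and 38.8% of the outer loci (38.1 to 39.4). Without runs the shares were 39.3% (37.9 to 40.8) and 43.3% (42.6 to 44.1). Loci listed in both sets ending in S and in none ending in R made up 13.3% of the middle and 9.42% of the outer loci with runs, and 5.96% and 4.82% without. With runs, loci listed in a set ending in R and in none ending in S made up 9.23% and 9.30%.

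Where a root cluster and a shoot cluster overlapped each other and no other cluster, their signals could be set side by side, giving 2403 pairs in the middle and 9953 in the outer parts. Clusters with a signal below 2, most of which had a partner in the other tissue, could form a pair too. A pair was called when its log2(signal + 1) differed by at least 4-fold with the higher signal at least 1, a rule of size that understates the change of weak clusters. Of middle pairs, 105 (4.37%) were called higher in root, against 4.31% of all pairs of the series. Shoot was higher in 389 (16.2%), against 15.5% of all pairs. In the outer parts the shares were 4.29% and 15.3%, so that the middle differed from them by 0.0794 points (-0.776 to 1.05) and 0.846 points (-0.745 to 2.52). The median log2 difference, root minus shoot, was -0.53 in the middle and -0.49 in the outer parts. Recovered tags at the dominant site alone, scaled to the same total per set, were also used in place of the signal of the whole cluster. On these, 292 middle pairs (12.2%) were called higher in root and 232 (9.65%) higher in shoot. The shares of all pairs were 11.9% and 8.91%, and the median of the middle was 0.44. Without runs, 92 of 2132 middle pairs were higher in root and 321 higher in shoot, against 4.33% and 14.7% of all pairs. On recovered tags these were 246 and 166, against 11.7% and 7.8% of all pairs. The balance of root and shoot calls thus turned between whole-cluster signal and dominant-site tags. These differ both in scale and in the part of the cluster counted, and which of them turned the balance was not tested. The shares of the middle were near those of all pairs on both.

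**Figure D5:**
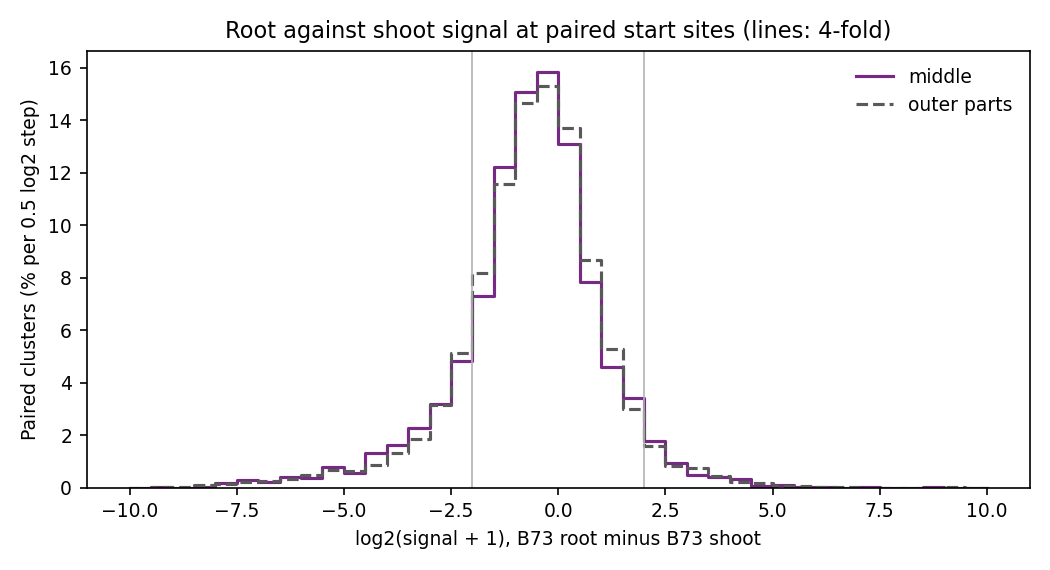
Distribution of the log2(signal + 1) difference, B73 root minus B73 shoot, over paired clusters of the middle (solid line, 2403 pairs) and the outer parts (dashed line, 9953 pairs), in percent of pairs per step of 0.5. Vertical lines mark a 4-fold difference, and the medians are -0.53 and -0.49.

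The largest differences of the middle had the same direction in the Mo17-named sets, by value, where both of these listed a cluster. Higher in root, the first pair stood on chromosome 3 (plus strand) at 130544761 in root, with 970 in B73 root and 1.40 in B73 shoot (log2 difference 8.66). Mo17_R had 1487 and Mo17_S 4.45 there. The next, on the minus strand of chromosome 3 at 97032476, had 564 in root and 2.86 in shoot (7.19), with 422 in Mo17_R and 1.12 in Mo17_S. The third, on the minus strand of chromosome 7 at 108332088, had 124 in root and 0.531 in shoot (6.35), and the shoot value rested on 1 tag at its dominant site. Mo17_R had 72.8 there and Mo17_S listed no cluster. The shoot values of 1.40 and 0.531 and the Mo17_S value of 1.12 lay below 2. Below 2, 92.9% of 84 middle shoot clusters were shared with root, against 42.9% of 1430 from 2 to below 5. Of 199 middle Mo17_S clusters below 2, 98.5% were shared with Mo17_R. Whether these low values were listed because of the other tissue was not tested.

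Higher in shoot, the first pair stood on the plus strand of chromosome 10 at 83469802, with 1.17 in root and 1167 in shoot (log2 difference -9.07). Mo17_R had 0.696 and Mo17_S 517 there. The next lay in the chromosome 7 run, on the plus strand at 90709153 in root and 90709152 in shoot, with 1.32 in root and 817 in shoot (-8.46). Mo17_R had 3.53 there and Mo17_S 315. The third, on the minus strand of chromosome 3 at 138152001 in root and 138152019 in shoot, had 0.267 in root and 322 in shoot (-7.99). Mo17_R had 0.553 and Mo17_S 467 there. Each of these 3 root clusters rested on 1 to 5 tags at its dominant site. Their signals lay below 2, where root clusters were listed mostly with a shoot cluster overlapping them. The Mo17_R values of 0.696 and 0.553 lay below 2 too, where 97.4% of 493 middle Mo17_R clusters were shared with Mo17_S.

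Root and shoot used the same dominant position in similar shares of the pairs of both parts. It was identical in 49.0% of 2403 middle pairs (47.0 to 51.0) and in 49.2% of 9953 outer pairs (48.3 to 50.2). Among pairs with at least 100 tags at the dominant site in both tissues it was identical in 71.2% of 156 middle pairs (63.6 to 77.7) and in 74.3% of 805 outer pairs (71.2 to 77.2). Of these deeper middle pairs, 104 were sharp in both tissues, 36 broad in both, 16 sharp in root alone and 0 sharp in shoot alone. Of the 805 outer pairs, 525 were sharp in both, 162 broad in both, 105 sharp in root alone and 13 sharp in shoot alone.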

How the data were processed

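CAGE clusters in 4 sets were used, as deposited. The submitters' processing notes name Bowtie2 2.0.4. Of the genome build, clustering tool and thresholds, none is stated in the labels or files. The deposited signal is the authors' power-law normalization. At dominant sites it follows tags to a power of 1.09 in B73 root and 0.888 in B73 shoot, and inverting it gave whole tags within 0.01 at 100% of sites. This moves root against shoot levels, and tags carry no molecular identifiers. The deposited shape score was read and is not reported.

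The rule for the middle, the runs and the lists were chosen with earlier results of these data known. Cluster starts are counted from 0 in the files and were raised by 1. Runs were found in each set, and a cluster in a run of any set was left out of values without runs. Intervals are 95% Wilson for shares, Newcombe for differences and exact binomial for density ratios. Named are the 3 strongest clusters of each B73 set, the 3 most different pairs in each direction, the 3 largest runs, the clusters nearest each boundary and the longest empty stretches. The strongest clusters without a partner were added after their values were seen. Alternatives changed the boundaries, runs, width, overlap, signal minimum, fold and scale. Python 3.11.15, numpy 2.4.6, pandas 2.3.3, scipy 1.17.1, statsmodels 0.14.6 and matplotlib 3.10.9 were used, after a test on simulated data.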

Additional observations from a re-analysis of the deposited data

Results flagged for a closer look

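The sets named Mo17_R and Mo17_S match no labelled group and stand for none here. Their runs helped to mark the clusters left out of values without runs, and they were counted beside the B73 sets by name. They hold start sites in the middle of the chromosomes, 3818 clusters in Mo17_R and 5158 in Mo17_S. Their densities there were 5.56 and 7.52 clusters per Mb. Whether they are the libraries labelled A632 was not tested.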

How the results depend on the processing

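No paired analysis was possible because the files hold no value per library, and replicates could not be left out for the same reason. Of 160 values under alternatives, 62 stayed within their counting interval or within 1.5 times a count, and 98 moved. Of 88 shares given for both parts, 16 turned the order of the middle and the outer parts against the main value. Where sets are listed, the order is B73 root, B73 shoot, Mo17_R and Mo17_S unless named. The causes were not tested.

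The density ratio stayed below 1 throughout. Without runs of any set it was 0.450, 0.472, 0.471 and 0.485, and without runs of the set itself, chosen after seeing the data, 0.456, 0.472, 0.476 and 0.486. For the middle 1/5 of the length it was 0.462 in B73 root, 0.532 in B73 shoot and 0.555 in Mo17_S, and for the middle 1/2 0.4998 in Mo17_R.

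The sharp share of the middle was 51.7%, 42.2%, 47.6% and 43.5% without runs of any set and 52.0%, 42.4%, 47.9% and 43.9% without the set's own runs. Both views turned the order of the parts, except in Mo17_R, where the middle stayed higher. With a limit of 20 bp it was 62.4%, 63.6%, 60.7% and 65.6%, and with 5 bp 47.5%, 49.3%, 44.0% and 52.0%. From a signal of at least 5 it was 53.4% in B73 shoot, 52.3% in Mo17_R and 54.1% in Mo17_S. It was 51.9% in Mo17_R for the middle 1/2 and 58.5% in Mo17_S for the middle 1/5 of the length.

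The share of the signal in the middle was 17.9%, 17.3%, 17.7% and 18.1% without runs of any set, and 15.2%, 16.7%, 17.6% and 17.5% without the set's own. For the middle 1/5 of the length it was 7.52%, 11.1%, 8.24% and 11.2%, and for the middle 1/2 23.9%, 34.2%, 25.6% and 34.5%. On recovered dominant-site tags it was 15.9%, 19.4%, 15.3% and 19.99%, and from a signal of at least 5 it was 15.5%, 20.2%, 15.2% and 20.7%. Without the 10 strongest clusters it was 17.5% in B73 root, 21.2% in B73 shoot and 18.1% in Mo17_R.

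The share of middle clusters overlapped by the other tissue, with an overlap of at least 50% of both clusters, was 70.1%, 46.2%, 74.6% and 55.2%. From a signal of at least 5 it was 76.3%, 40.9%, 74.0% and 51.3%. By dominant sites within 100 bp it was 87.6% in B73 root (outer parts 86.4%), 68.7% in B73 shoot (73.5%), 87.9% in Mo17_R (87.0%) and 76.9% in Mo17_S (79.4%), so that the order turned in B73 root and Mo17_R. It turned in B73 root for the middle 1/5 of the length too, at 87.9% and 87.8%. Without runs it was 72.9% in B73 shoot, 87.9% in Mo17_R and 80.5% in Mo17_S.

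For the other line name, 50% of both gave 51.0%, 55.4%, 38.6% and 47.3% (outer parts 49.4%, 53.5%, 39.7% and 46.9%), and sites within 100 bp gave 82.0%, 84.6%, 66.4% and 77.3% (81.2%, 83.2%, 67.7% and 76.1%). Both turned the order in B73 root and Mo17_S. Without runs it was 79.2% in B73 shoot (outer parts 80.3%, turned), 62.7% in Mo17_R and 68.2% in Mo17_S. From a signal of at least 5 it was 83.4% in B73 root (81.2%, turned) and 56.2% in Mo17_R, and for the middle 1/5 81.0% in B73 root (80.4%, turned) and 59.0% in Mo17_R.

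Pairs of the middle higher in root and in shoot numbered 298 (12.4%) and 859 (35.7%) at 2-fold, against 12.5% and 35.2% of all pairs. At 8-fold they numbered 39 (1.62%) and 196 (8.16%), against 1.8% and 7.26%. Among 1274 pairs in the middle 1/5 of the length they were 43 (3.38%) and 212 (16.6%). Among 3975 pairs in the middle 1/2 they were 179 (4.5%) and 653 (16.4%). Both stand against 4.31% and 15.5% of all pairs. On recovered dominant-site tags they were 292 (12.2%) and 232 (9.65%), against 11.9% and 8.91%, so that root calls outnumbered shoot calls.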
